A study of Mus musculus with 2 samples.

Results

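Genes of histone methylation and of the Polycomb complexes were examined in the second polar body (PB2) and in the zygote of the mouse embryo. Members were taken by their symbols alone: lysine methyltransferases of the Kmt, Setd, Nsd, Ehmt and Suv39 names with Setmar, Dot1l and Ash1l, the COMPASS subunits Wdr5 and Ash2l, demethylases of the Kdm names, heterochromatin and Polycomb Cbx proteins, the subunits of Polycomb repressive complexes 1 and 2 (PRC1 and PRC2), and arginine methyltransferases of the Prmt names with Carm1. The table held 67 such genes among 11262, and 63 of them reached 1 TPM in at least one library and could be compared. Of 82 genes written down by role, the other 15, among them Ehmt2, Suv39h1, Ring1, Pcgf2, Cbx6 and Cbx8, were not analysed here.

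Both libraries came from untreated C57BL/6 embryos (C57BL/6N in the study's methods) that were taken from the oviduct, grown in KSOM and separated at the late one-cell stage, when the zona pellucida was dissolved with acid Tyrode's solution and PB2 was detached by trypsin and pipetting. One pool was PB2 and the other was the zygote without it. Polyadenylated RNA of each pool was amplified as full-length cDNA before sequencing, which can change the proportions of transcripts. There was 1 library per group, so the spread between samples is unknown, no test was run, and each difference describes these 2 libraries. Values are in TPM, the share of each gene's transcripts in its library after adjustment by the authors for gene length and library total, so levels of different genes can be set side by side. A lower share of the total and less RNA per polar body cannot be told apart in them. All 14 oocyte genes of a marker list were present in both libraries, with a summed level of 24245 TPM in the zygote against 28972 TPM in PB2. On the scale defined further on, 4 of them passed 2-fold towards PB2 (28.6%, beside 18.9% of all genes) and 1 towards the zygote (7.14%, beside 8.09%). Of 14 cumulus and granulosa cell markers, 4 were in the table, with summed levels of 81.7 TPM and 84.0 TPM, most of it Cyp19a1. Both cells hold cytoplasm of the same egg, and no list was used to tell them apart.

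Histone methylation marks chromatin as open or closed without changing the DNA. Trimethylated lysine 4 of histone H3 (H3K4) stands at active promoters and H3K36 methylation along transcribed genes, while H3K9 methylation, read by the heterochromatin protein 1 (HP1) family, and H3K27 methylation, written by PRC2, accompany silencing. PRC1 ubiquitinates histone H2A, in canonical forms that read H3K27 methylation through a Cbx subunit and in variant forms that do not need it. The egg stores these enzymes and their transcripts, because the zygote has to reset the marks of both parental genomes before its own genome is fully transcribed.

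Most members were detected in both cells. In the zygote 66 of the 67 were above 0 TPM and in PB2 all 67 were, and 35 and 40 of them reached 10 TPM. The median member stood at 10.9 TPM in the zygote and at 18.0 TPM in PB2, against 8.70 and 11.1 TPM over the whole table. Kmt2a was listed at 0 in the zygote and at 0.4 TPM in PB2. Together with Kdm5a, Phc3 and Kmt5c, none of which passed 0.9 TPM, it was left out of the comparison. The members' TPM made 0.470% of the zygote library and 0.390% of the PB2 library. Pcgf1 alone made up 51.5% of that sum in the zygote and 23.9% in PB2, and without it the members held 2281 TPM in the zygote against 2966 TPM in PB2.

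The log2 ratio of a gene is log2 of its PB2 TPM plus 1 over its zygote TPM plus 1, and a gene was counted when this was at least 1 in size (2-fold). PB2 held at least 2-fold more of 17 of the 63 members, 27.0%, and of 18.9% of the 10645 genes in the comparison. With 0.1 or 0.01 TPM added in place of 1, the members' share stayed at 27.0% and that of all genes was 24.7%. The zygote held at least 2-fold more of 3 members, Setmar, Pcgf1 and Setd4, which is 4.76% beside 8.09% of all genes. The median log2 ratio was 0.29 for the members and 0.21 for all genes, so part of the lean towards PB2 is shared by the whole table. With all ratios centred on the table's median, 14 members counted towards PB2 and 3 towards the zygote, beside 13.0% and 12.1% of all genes. Just inside the threshold stood Prmt1 with a log2 ratio of 1.01, and just outside it Kdm2b with 0.85. By the higher of both levels, 4 of 21 members from 1 to 10 TPM passed 2-fold towards PB2, 8 of 23 from 10 to 50 TPM and 5 of 19 above that, beside 16.7%, 21.8% and 18.7% of all genes at those levels. Where a pair of TPM values is given for a gene, the zygote comes first and PB2 second.

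**Figure D1:**
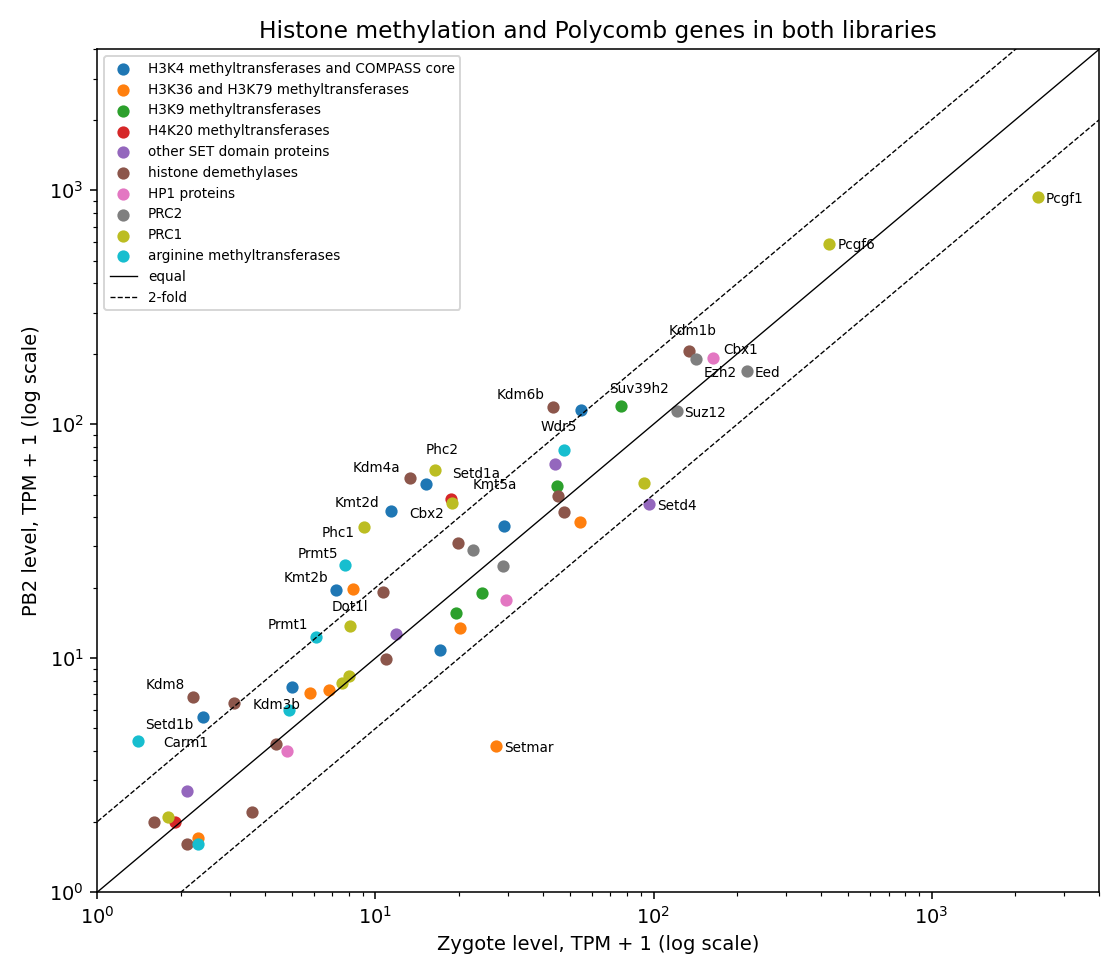
Level of each of the 63 members compared, with zygote TPM + 1 on the horizontal and PB2 TPM + 1 on the vertical axis, both logarithmic and coloured by role, 1 library each; the solid line marks equal levels and the dashed lines 2-fold. Setmar lies far below the lower dashed line, Pcgf1 is the most abundant member in both libraries, and 17 members lie on or above the upper dashed line.

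The members at the ends of this range were Kdm4a, Phc1 and Phc2 towards PB2 and Setmar, Pcgf1 and Setd4 towards the zygote. Their coding starts are given so that each can be identified, as the first 90 coding bases of the longest protein-coding transcript in GENCODE M21 (mouse assembly GRCm38), written 5′ to 3′ with the start codon in capitals.
Kdm4a (chr4:118177443-118177532, minus strand): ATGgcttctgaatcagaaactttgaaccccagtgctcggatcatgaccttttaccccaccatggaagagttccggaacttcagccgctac
Phc1 (chr6:122336882-122336971, minus strand): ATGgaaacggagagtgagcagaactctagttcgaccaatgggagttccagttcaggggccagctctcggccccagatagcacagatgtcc
Phc2 (chr4:128705052-128705141, plus strand): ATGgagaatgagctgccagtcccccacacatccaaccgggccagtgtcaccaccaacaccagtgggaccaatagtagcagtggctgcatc
Setmar (chr6:108065081-108065170, plus strand): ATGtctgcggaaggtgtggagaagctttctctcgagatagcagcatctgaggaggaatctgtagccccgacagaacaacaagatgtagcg
Pcgf1 (chr6:83078386-83078475, plus strand): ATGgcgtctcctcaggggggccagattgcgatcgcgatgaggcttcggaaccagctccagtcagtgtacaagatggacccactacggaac
Setd4 (bases 417 to 506 of the transcript, across an exon junction, gene on the minus strand of chromosome 16): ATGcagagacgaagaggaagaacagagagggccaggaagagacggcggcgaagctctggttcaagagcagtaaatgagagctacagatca

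Within these 90 bases the GC content was 55.6% for Phc1 and 57.8% for Phc2, lower for Kdm4a, and 51.1% for Setmar, 52.2% for Setd4 and 58.9% for Pcgf1, so the members high in PB2 overlapped those high in the zygote. Over whole transcripts it was 53.6% for Kdm4a, 53.1% for Phc1 and 60.4% for Phc2, and 47.1% for Setmar, 50.9% for Pcgf1 and 55.6% for Setd4.

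The libraries started from polyadenylated RNA, so the ends of transcripts were searched for the polyadenylation hexamers AATAAA and ATTAAA within the last 45 bases. Of the 67 members, 52 had one of them, 77.6%, and so had 78.3% of 11185 genes with an annotated end. The last 30 bases, with the hexamer in capitals, are shown for the members with the highest GC content, the lowest log2 ratio and the highest level.
Phc2 (chr4:128752852-128752881, plus strand): aaaaAATAAAtctgtaaaatttgcctcttc
Setmar (chr6:108077093-108077122, plus strand): cttgccggcAATAAAgctgtcttctatcta
Pcgf1 (chr6:83080826-83080855, plus strand): attttttgaAATAAAtgcttttaaaaagca

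Writers of H3K4 methylation, counted with the core subunits Wdr5 and Ash2l, had a high median log2 ratio, 1.15. It was 0.56 with the trend on GC content described further on removed. Of the 8 genes, 5 passed 2-fold towards PB2 (62.5%, beside 18.9% of all genes) and none towards the zygote (beside 8.09%). Their summed level was 133.9 TPM in the zygote against 286.1 TPM in PB2. The 6 SET domain enzymes alone summed to 64.1 TPM in the zygote against 161.8 TPM in PB2, with a median log2 ratio of 1.33. Of these 6, 4 passed 2-fold towards PB2 (66.7%), and 2 did with the GC trend removed (33.3%, beside 9.08% of all genes). Kmt2d, which monomethylates H3K4 at enhancers, stood at 10.4 TPM in the zygote and at 41.7 TPM in PB2, a log2 ratio of 1.91. Setd1a, a catalytic subunit of the SET1 form of COMPASS, had 14.2 and 54.7 TPM, with a log2 ratio of 1.87. Both stood near 4-fold on deposited values, with ratios of 4.01 and 3.85. The level of Setd1a is uncertain, since 54.5% of the 31-base words of its transcript also occur in other annotated genes. Kmt2b, the H3K4 methyltransferase on which the mouse oocyte depends, stood at 6.2 TPM in the zygote and at 18.5 TPM in PB2. Setd1b was scarce in both, at 1.4 and 4.6 TPM, with a log2 ratio of 1.22. Kmt2c, the close relative of Kmt2d, differed little in level, with 27.9 and 35.8 TPM and a log2 ratio of 0.35. On deposited values Kmt2c was thus the more abundant of the pair in the zygote and Kmt2d, by a small margin, in PB2. With the GC trend removed the log2 ratios were 0.26 for Kmt2c and 1.02 for Kmt2d. Kmt2e had 4.0 and 6.5 TPM.

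The shared core subunits of these complexes differed in direction. Wdr5, the WD-repeat scaffold that holds the catalytic subunit, stood at 53.7 TPM in the zygote and at 114.5 TPM in PB2, a log2 ratio of 1.08. Ash2l, which activates the catalytic subunit, went the other way, with 16.1 TPM in the zygote against 9.8 TPM in PB2, a log2 ratio of -0.66. Wdr5 thus exceeded Ash2l 3.34 times in the zygote and 11.7 times in PB2. Of 10 partners compared from a separate list, 4 were at least 2-fold higher in PB2, beside 18.9% of all genes. They were Cxxc1 (7.1 and 24.5 TPM), Men1 (5.2 and 15.0 TPM), Hcfc1 (8.3 and 22.0 TPM) and Psip1 (164.6 and 346.8 TPM). With the GC trend removed Psip1 alone passed 2-fold towards PB2, with 1.27 (beside 9.08% of all genes). Cxxc1 then went to 0.77, Men1 to 0.46 and Hcfc1 to 0.69. Rbbp5, the remaining WD-repeat core subunit, had 23.3 TPM in PB2 and a log2 ratio of -1.07, and was the 1 partner at least 2-fold higher in the zygote. Dpy30, the small core subunit, was by far the most abundant, at 1755 and 1037 TPM.

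Of the H3K36 and H3K79 methyltransferases, 4 were higher in the zygote and 3 in PB2. Of these 7 members, 1 passed 2-fold in each direction (14.3%, beside 18.9% of all genes towards PB2 and 8.09% towards the zygote). The median log2 ratio of -0.44 was the value of the scarce Nsd3. It kept its sign under each of 9 alternatives and was -0.21 with a filter of 5 TPM. Setmar, a SET domain methyltransferase whose human form is fused to a mariner transposase, stood at 26.1 TPM in the zygote and at 3.2 TPM in PB2. Its log2 ratio of -2.69 was the lowest of the members, and rounding of the deposited values allows 8.02 to 8.30 times more in the zygote. Setd2, which writes H3K36 trimethylation and is needed in the mouse oocyte, had 19.2 and 12.5 TPM, and Nsd1, which writes H3K36 dimethylation, had 53.6 and 37.2 TPM. Neither reached 2-fold, with log2 ratios of -0.58 and -0.52. Nsd2 and Ash1l stayed under 7 TPM in both libraries with log2 ratios of 0.10 and 0.29, and Nsd3 had 1.3 and 0.7 TPM. Dot1l, the only known H3K79 methyltransferase, was the member past 2-fold towards PB2, with 7.3 TPM in the zygote against 18.7 TPM in PB2. Its log2 ratio of 1.25 became 0.41 with the GC trend removed.

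None of the 4 H3K9 methyltransferases compared reached 2-fold (beside 18.9% of all genes towards PB2 and 8.09% towards the zygote). Their median log2 ratio was -0.02. Suv39h2 was the most abundant, with 75.3 TPM in the zygote against 118.3 TPM in PB2, a log2 ratio of 0.64. Setdb1, the enzyme recruited to retroelements, had 43.9 and 53.6 TPM. Setdb2 had 18.5 and 14.6 TPM and Ehmt1, the partner of G9a, 23.2 and 18.0 TPM. Trim28, the corepressor that brings Setdb1 to chromatin, stood apart from its enzyme, with 24.3 TPM in the zygote against 91.4 TPM in PB2, a log2 ratio of 1.87. Uhrf1, which links H3K9 methylation to DNA methylation, had 169.7 and 353.1 TPM. Those were the 2 of 6 H3K9 partners at least 2-fold apart (33.3%, beside 18.9% of all genes towards PB2). With the GC trend removed none of the 6 passed 2-fold towards PB2 (beside 9.08%), with 0.93 for Trim28 and 0.50 for Uhrf1. The HP1 proteins that read the mark differed by less than 2-fold, with 163.0 and 191.7 TPM for Cbx1, 28.5 and 16.7 TPM for Cbx5 and 3.8 and 3.0 TPM for Cbx3. Their median log2 ratio of -0.26 became 0.01 once the trend on GC content was removed. Cbx3 is uncertain, since 26.6% of the 31-base words of its transcript also occur in other annotated genes, mostly processed pseudogenes.

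For H4K20, Kmt5a, which places the first methyl group, stood at 17.7 TPM in the zygote and at 47.1 TPM in PB2, a log2 ratio of 1.36, while Kmt5b, which adds further groups, was near 1 TPM in both. None of the 4 other SET domain proteins compared was 2-fold higher in PB2 (beside 18.9% of all genes). Towards the zygote 1 of them passed (beside 8.09%). Setd4 stood at 95.7 TPM in the zygote and at 44.5 TPM in PB2, a log2 ratio of -1.09. Setd6 had 43.4 and 66.6 TPM, Setd3, an actin histidine methyltransferase, 10.9 and 11.7 TPM, and Setd5 1.1 and 1.7 TPM. Setd3 shares 49.4% of its 31-base words with other annotated genes, chiefly a processed pseudogene.

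**Figure D2:**
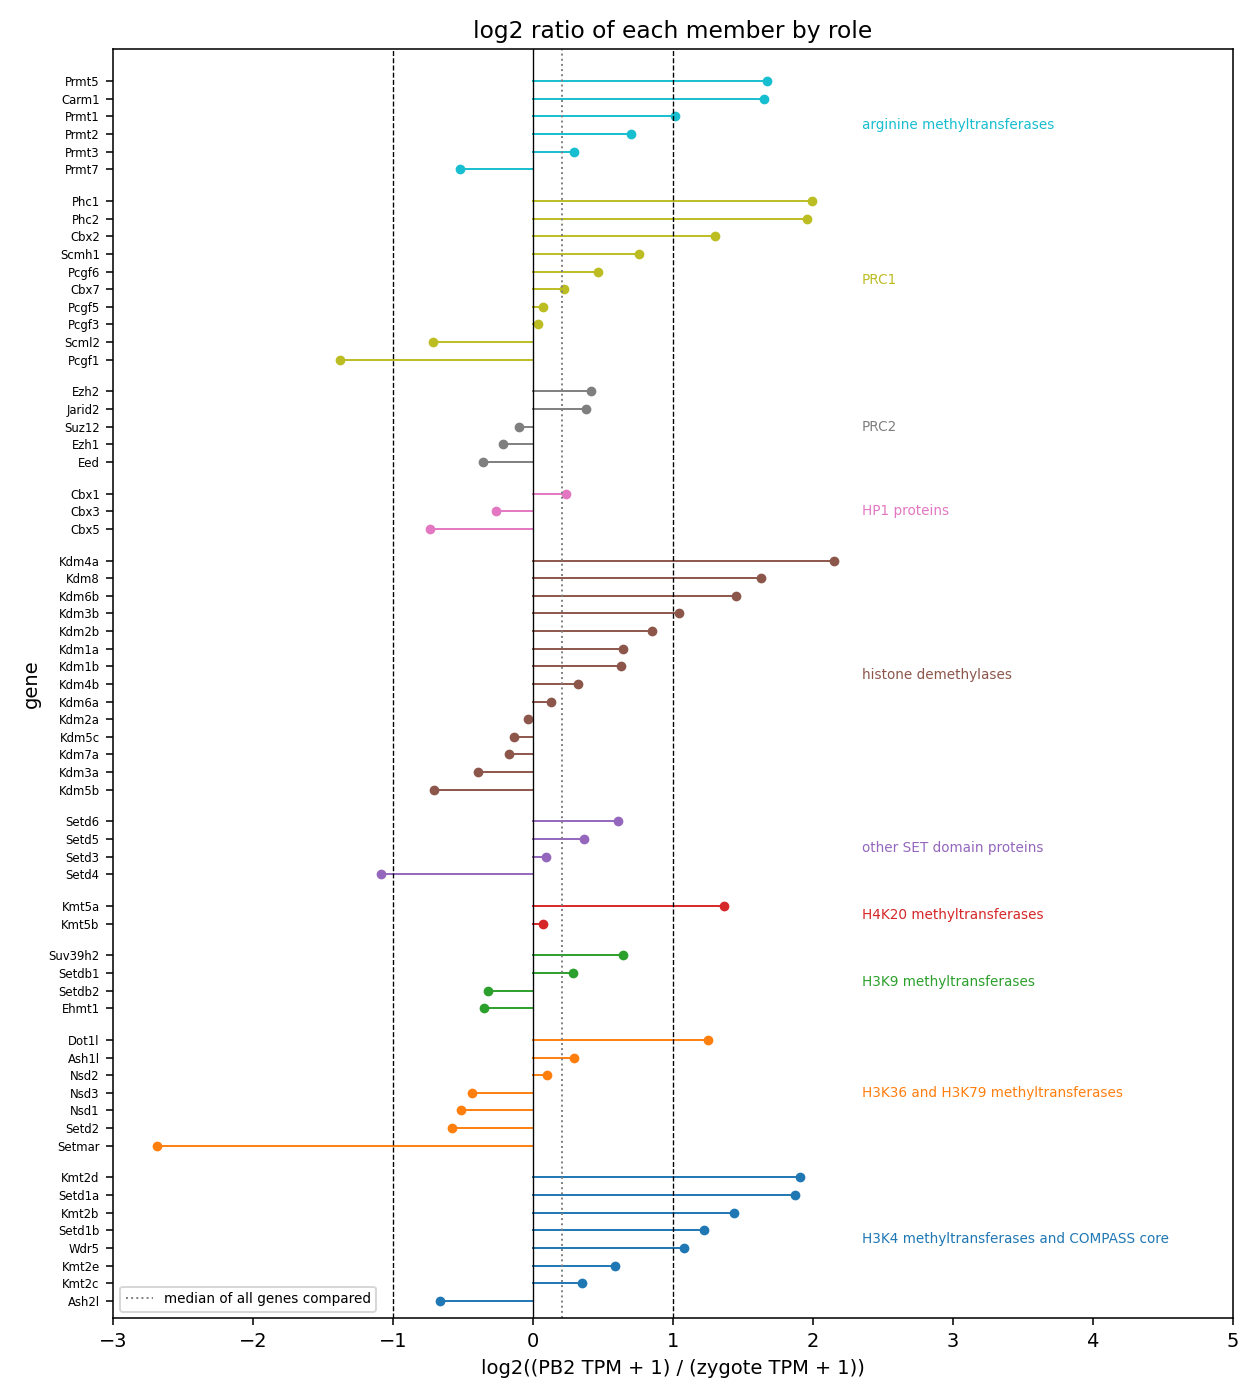
The log2 ratio of each of the 63 members, 1 line per gene from 0 to its ratio, ordered within role groups; positive values are higher in PB2, dashed lines mark 2-fold and the dotted line the median of all genes compared (0.21). The H3K4 writers and core subunits except Ash2l point towards PB2, the PRC2 members stay inside 2-fold, and Setmar has the longest line.

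Of the 14 demethylases, 4 passed 2-fold towards PB2 (28.6%, beside 18.9% of all genes) and none towards the zygote (beside 8.09%), with a median log2 ratio of 0.47. With the GC trend removed 2 passed towards PB2 (14.3%, beside 9.08%), and the median was 0.28. Kdm4a, which removes methyl groups from H3K9 and H3K36 and is a maternal factor of the mouse embryo, stood at 12.3 TPM in the zygote and at 58.0 TPM in PB2. Its log2 ratio of 2.15 was the highest of the members. Kdm6b, an H3K27 demethylase, had 42.4 and 117.5 TPM, whereas Kdm6a, the X-linked enzyme of the same mark, had 44.4 and 48.5 TPM. The pair was thus nearly level in the zygote and Kdm6b was 2.42 times Kdm6a in PB2. The log2 ratio was 1.45 for Kdm6b and 0.12 for Kdm6a. With the GC trend removed the 2 were closer, at 0.51 for Kdm6b and 0.32 for Kdm6a. Before that removal Kdm8 and Kdm3b were also past 2-fold but low, with 1.2 and 5.8 TPM for Kdm8 and 2.1 and 5.4 TPM for Kdm3b.

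The demethylases of H3K4 had log2 ratios within 2-fold. Kdm1b, an amine oxidase needed in the oocyte for maternal imprints, was the most abundant demethylase, with 132.6 TPM in the zygote against 205.2 TPM in PB2. Its relative Kdm1a, a maternal factor required after fertilization, had 18.8 and 29.9 TPM. Both had a log2 ratio near the same value, 0.63 and 0.64, and Kdm1b exceeded Kdm1a about equally in the zygote, 7.05 times, and in PB2, 6.86 times. Among the Kdm5 enzymes, which act on trimethylated H3K4, Kdm5c had 9.9 and 8.9 TPM and Kdm5b 2.6 and 1.2 TPM, and Kdm5a was under 1 TPM. Kdm5b was within 2-fold only with 1 TPM added, with a log2 ratio of -0.71 that became -1.05 and -1.11 with 0.1 and 0.01 TPM added, and its deposited value was 2.17 times higher in the zygote. Of the others, Kdm7a had 46.7 and 41.3 TPM and Kdm2b 9.6 and 18.1 TPM. Kdm2a, Kdm3a and Kdm4b stayed under 4 TPM in both libraries. None of 5 demethylases outside the name rule and none of 5 demethylase partners passed 2-fold. Of all genes, 18.9% passed towards PB2 and 8.09% towards the zygote.

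PRC2, which methylates H3K27, was abundant and close to equal in both cells. Its 5 members summed to 526.9 TPM in the zygote against 520.8 TPM in PB2. None of them reached 2-fold (beside 18.9% of all genes towards PB2 and 8.09% towards the zygote). The median log2 ratio was -0.10, with a change of sign to 0.15 once the GC trend was removed. Eed, which reads the mark, stood at 216.1 TPM in the zygote and at 168.2 TPM in PB2, and the catalytic subunit Ezh2 had 141.5 and 188.5 TPM. Eed was therefore 1.53 times Ezh2 in the zygote and 0.89 times in PB2. Suz12, the scaffold, had 120.2 and 112.3 TPM, and the less active catalytic subunit Ezh1 27.7 and 23.7 TPM. Ezh2 exceeded Ezh1 5.11 times in the zygote and 7.95 times in PB2. Jarid2, a recruiting subunit, had 21.4 and 28.1 TPM. Of 7 PRC2 partners compared, 1 was past 2-fold, towards PB2 (14.3%, beside 18.9% of all genes). This was Phf1, a Polycomb-like protein that stabilises PRC2 on chromatin, at 41.2 TPM in the zygote and at 290.7 TPM in PB2. Its log2 ratio was 2.79, and 1.84 with the GC trend removed. The histone binder Rbbp7 was nearly level at 3202 and 3281 TPM and far above its paralog Rbbp4, at 11.7 and 7.7 TPM.

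The log2 ratios of PRC1 ran from that of Pcgf1 to that of Phc1. Of its 10 subunits, 3 passed 2-fold towards PB2 (beside 18.9% of all genes) and 1 towards the zygote (beside 8.09%). The median log2 ratio was 0.34. The 3 were subunits of canonical PRC1. With the GC trend removed 1 of the 10 subunits passed towards PB2 (beside 9.08% of all genes), and the median was 0.30. That subunit was Phc1 with 1.49, while Phc2 went to 0.99 and Cbx2 to 0.45. Phc1 stood at 8.1 TPM in the zygote and at 35.3 TPM in PB2, and Phc2 had 15.4 and 62.7 TPM, which makes 4.36 and 4.07 times as much in PB2. These polyhomeotic proteins polymerise and compact chromatin. Cbx2, the chromodomain subunit that binds H3K27 methylation, had 17.8 and 45.2 TPM, whereas Cbx7 was near 1 TPM in both. Bmi1, the Pcgf subunit of canonical PRC1 counted among the partners, was nearly level with 289.8 and 295.1 TPM, and so was the ubiquitin ligase Rnf2 with 104.9 and 100.9 TPM. Of the Scm proteins, which bridge to the polyhomeotic subunits, Scmh1 had 7.1 and 12.7 TPM and the X-linked Scml2 91.6 and 55.3 TPM.

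Variant PRC1 carried the most abundant member. Pcgf1 (ENSMUSG00000069678, chr6:83077869-83080855 in GRCm38, plus strand, 9 exons), which defines the variant called PRC1.1, had 2418 TPM in the zygote, where it ranked 51 in the table, and 930.8 TPM in PB2, where it ranked 121. Its log2 ratio was -1.38, and it stayed past 2-fold under each of the 9 alternatives. Other subunits of PRC1.1 did not share its direction as a group: Kdm2b, which takes the complex to CpG islands, had 9.6 and 18.1 TPM, Bcorl1 1.8 and 5.9 TPM, Bcor 1.4 and 0.3 TPM, Rybp 8.5 and 15.9 TPM and Yaf2 101.4 and 109.8 TPM. Pcgf6, which defines PRC1.6 and has a part in silencing germ cell genes, stood at 428.2 TPM in the zygote and at 590.8 TPM in PB2. Pcgf1 was thus 5.65 times Pcgf6 in the zygote and 1.58 times in PB2, a ratio within each library that does not depend on its total. The PRC1.6 partners L3mbtl2, Mga and E2f6 had 4.2 and 11.3, 5.6 and 5.4, and 1.5 and 1.6 TPM. Pcgf3 and Pcgf5 stayed between 6.6 and 7.4 TPM. In all, 3 of 12 PRC1 partners were at least 2-fold higher in PB2 (beside 18.9% of all genes). They were L3mbtl2, Bcorl1 and Dcaf7 (62.2 and 130.0 TPM). None was 2-fold higher in the zygote (beside 8.09%). With the GC trend removed none of the 12 passed towards PB2 (beside 9.08% of all genes). L3mbtl2 then went to 0.56, Bcorl1 to 0.69 and Dcaf7 to 0.72, while Bcor passed towards the zygote with -1.39 (beside 11.0%). Pcgf1 is uncertain in level, since 44.7% of the 31-base words of its 918-base transcript also occur in the processed pseudogene Gm8930, which was not analysed here.

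**Figure D3:**
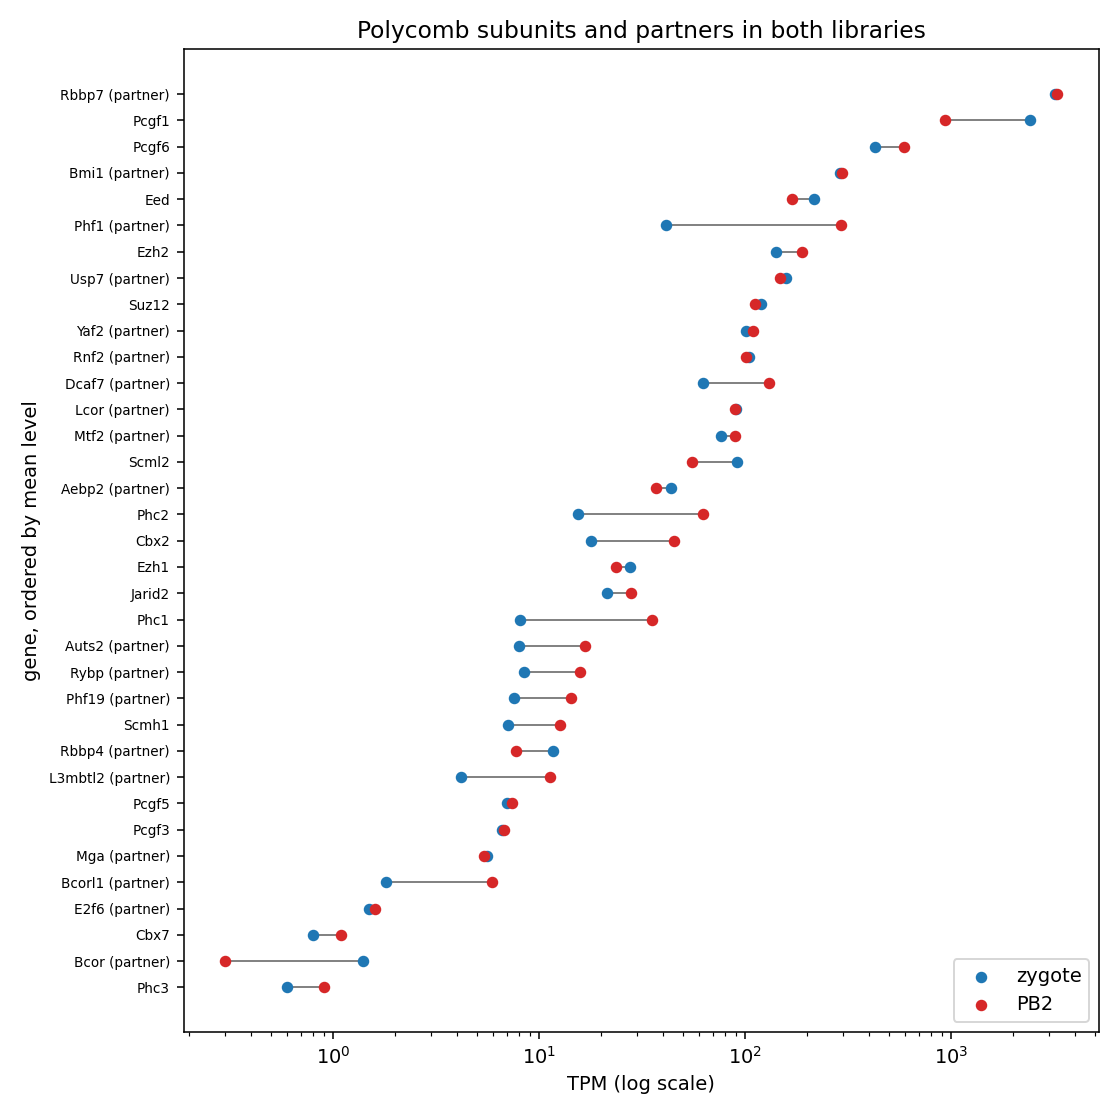
Levels of PRC1 and PRC2 members and of their partner genes (marked as such), in TPM on a log scale, with the zygote in blue and PB2 in red joined by a line, 1 library each, ordered by mean level. Pcgf1 lies left in PB2 (930.8 TPM) of its zygote level (2418 TPM), Phf1, Phc1, Phc2 and Cbx2 lie right, and Rbbp7, Bmi1 and Rnf2 nearly coincide.

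Arginine methyltransferases were low, with 1 of the 6 members above 30 TPM. The median log2 ratio was 0.86, and 3 of them were at least 2-fold higher in PB2, beside 18.9% of all genes. With the GC trend removed the median was 0.29 and Prmt5 alone stayed past 2-fold towards PB2, while Carm1 went to 0.82 and Prmt1 to 0.37. Prmt5, the main enzyme of symmetric dimethylation and needed in early embryos, stood at 6.8 TPM in the zygote and at 23.9 TPM in PB2, a log2 ratio of 1.67. Carm1, which methylates H3R26 and has been linked to the inner cell mass fate of blastomeres, had 0.4 and 3.4 TPM. Rounding alone lets the deposited ratio of 8.50 for Carm1 be any value from 7.44 to 9.86, and its counting error is unknown. With 1 TPM added the log2 ratio of Carm1 was 1.65, and it ran from 0.82 to 3.06 under the alternatives. Prmt1 had 5.1 and 11.3 TPM. Prmt2 was the most abundant, at 46.7 and 76.5 TPM, and had a log2 ratio of 0.70 that became -0.03 with the GC trend removed. Prmt3 had 3.9 and 5.0 TPM, and Prmt7 had 1.3 and 0.6 TPM. Of 3 Prmt5 cofactors none reached 2-fold (beside 18.9% of all genes towards PB2 and 8.09% towards the zygote). Riok1 had 880.0 and 1316 TPM and Coprs 219.2 and 374.3 TPM, far above the enzyme in both libraries. Clns1a had 37.2 and 21.8 TPM, with a log2 ratio of -0.74, and lay below the enzyme in PB2.

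The log2 ratio of the members moved with the GC content of their transcripts. Spearman's rho was 0.59 over the 63 members and 0.44 over 10606 genes, as a description across genes that share the same libraries. GC content had its median at 57.0% in the 17 members counted towards PB2, from 49.7% for Kmt5a to 60.4% for Phc2, and at 47.5% in the 43 members within 2-fold. All genes were divided by GC content into 4 bins of equal size. In the first and second bins, with 14 and 16 members, no member reached 2-fold towards PB2, beside 4.07% and 9.20% of their genes. In the third bin 6 of 17 members did, 35.3%, beside 21.6% of its genes, and in the last bin 11 of 16, 68.8%, beside 40.8%. Among the roles, the median was 54.2% for the H3K4 writers with Wdr5 and Ash2l, 46.5% for the H3K36 and H3K79 writers and 47.8% for PRC2.
With the trend on GC content removed from all genes, 7 members (11.1%) passed 2-fold towards PB2 and 4 towards the zygote, beside 9.08% and 11.0% of all genes, so the share towards PB2 was then near the background. The 7 were Kdm4a with 1.60, Phc1 with 1.49, Prmt5 with 1.20, Kmt5a with 1.11, Setd1a with 1.07, and Kmt2d and Kdm8 with 1.02, and all 7 are among the 17. Phc2 stopped just short at 0.99, while Kdm6b went to 0.51, Kmt2b to 0.52 and Setd1b to 0.31. In the zygote direction Setmar with -2.75, Setd4 with -1.81 and Pcgf1 with -1.72 kept their place and Prmt7 joined them. The part of GC content in these differences was not tested. Length moved little with the ratio over the members (rho of -0.02, against 0.17 over all genes), although members had long transcripts, with a median of 4658 bases against 3067 bases. With the trend on length removed, 11 members (17.5%) passed 2-fold towards PB2 and 6 towards the zygote, beside 12.1% and 11.7% of all genes.

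**Figure D4:**
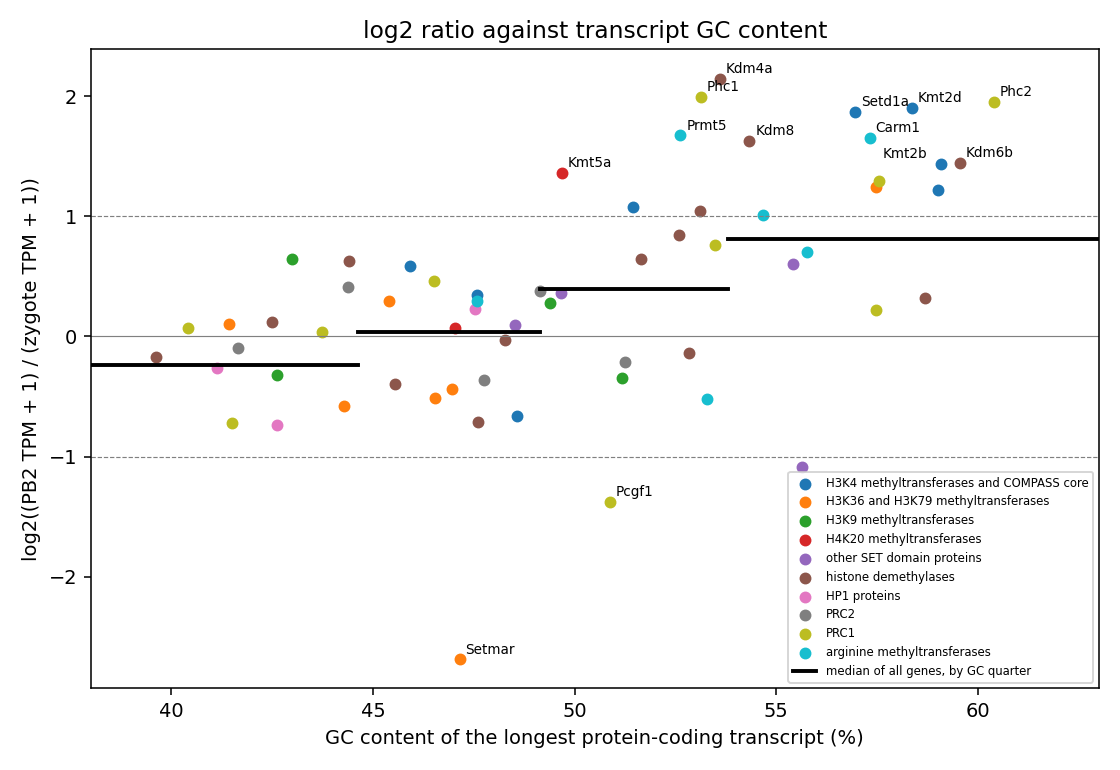
The log2 ratio of each of the 63 members against the GC content of its longest protein-coding transcript in percent, coloured by role, with black bars for the median of all genes in each of 4 equal bins of GC content. Members past the upper dashed line (2-fold) lie at 49.7% GC or more, while Setmar, Pcgf1 and Setd4 lie below the lower dashed line between 47.1% and 55.6%.

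Members lay on 20 chromosomes, with 9 on chromosome 6 and 3 on the X chromosome. The X-linked members Kdm5c, Kdm6a and Scml2 had log2 ratios of -0.14, 0.12 and -0.72. In GENCODE M21, 26 of the 67 members have exons that overlap those of another gene, and 9 share more than 5% of their 31-base words with other genes. Setd1a is one of these, with 54.5% shared, nearly all with the overlapping gene model Gm49388 on the same strand, and Prmt1 with 14.0% and Kdm2b with 13.2% are others. Whether the counting used strand is not given in the sources used here. Of 61 partner genes, 11 were past 2-fold towards PB2, 18.0% beside 18.9% of all genes, and 1 towards the zygote, 1.64% beside 8.09%. With the GC trend removed, 3 partners (4.92%) passed towards PB2, beside 9.08% of all genes.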

How the data were processed

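RNA-seq of PB2 and of the zygote was analysed, with 1 library each. Per the supplementary methods, the authors aligned reads with HISAT2 2.0.4, counted them with HTSeq 0.6.1p1 on Ensembl genes and used DESeq2 1.18.1. As the reference for alignment these methods name only OryCun2.0, of the rabbit. The processing notes name both OryCun2.0 and GRCm38, and the identifiers are of the mouse. The authors deposited TPM rounded to 1 decimal, and the step from counts to TPM is not given in the sources used here. Depth is therefore unknown, no counting interval is given, and ratios of genes under 1 TPM are coarse. The table analysed here sums to 92.7% of a full library in the zygote and 89.8% in PB2, and 0 value columns were left over.

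The log2 ratio used a pseudocount of 1 TPM over genes with at least 1 TPM in either library, and members were counted at 2-fold. Members were named in order of role. Both TPM values were given for those 2-fold apart or reaching 10 TPM in either library, and for lower ones that complete a pair or complex. Partners were named at 2-fold with 10 TPM, or where they complete a complex. Members, lists and alternatives were chosen with earlier results of these data known. The hand-written list of SET domain genes outside the name rule had 1 of 9 compared past 2-fold (11.1%, beside 18.9% of all genes). This was Prdm16, towards PB2 (5.9 and 22.5 TPM in the zygote and PB2). The list also holds Set, which is no methyltransferase. None of 4 H2AK119 deubiquitinases passed 2-fold (beside 18.9% of all genes towards PB2 and 8.09% towards the zygote).

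GC content and length came from the longest protein-coding transcript in GENCODE M21, found for all 67 members and 11221 genes. Trends were fitted by loess (span 0.3) and subtracted, which also centres the ratios, after the functions had been tested on simulated data. Alternatives were pseudocounts of 0.1 and 0.01 TPM, no filter, a filter of 5 TPM, scaling of the zygote to a median ratio of 1, centring, removal of either trend, rescaling after dropping mitochondrial genes and the top 50 by level, and thresholds of 1.5-fold and 4-fold. The software was matplotlib 3.10.9, statsmodels 0.14.6, pandas 2.3.3, numpy 2.4.6 and scipy 1.17.1 under Python 3.11.15.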

Additional observations from a re-analysis of the deposited data

How the results depend on the processing

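No paired analysis was possible because there is only 1 library of each cell, and leaving out a library was not possible for the same reason. The 17 members higher in PB2 became 7 with the GC trend removed, 11 with the length trend removed and 1 at 4-fold. The 3 members higher in the zygote became 5 with a pseudocount of 0.1 and likewise 5 with 0.01 (with Kdm5b and Prmt7), 6 with the length trend removed, 7 at 1.5-fold and 1 at 4-fold. The median log2 ratio of the members, 0.29, was 0.037 with the length trend removed and otherwise between 0.08 and 0.38. Removing a trend also centres the ratios, and the cause of the change beyond that was not tested. The other 22 values of these summaries stayed within the limits set, which were 1.5 times for a count and 0.07 to 0.61 for the median. The latter is a 95% order-statistic interval over the 63 members, which share the same libraries. It describes the spread between genes and not between samples. No member past 2-fold changed sign. Of the single members' ratios under the alternatives, 529 stayed within 0.5 and 26 moved by more, and of the role medians 87 stayed and 3 moved. Setmar, Pcgf1, Setd4, Kmt2d, Setd1a, Kmt5a, Phc1, Prmt5, Kdm4a and Kdm8 stayed past 2-fold under each of the 9 alternatives to the scale and filter that gave them a value. Depth is unknown, so the counting error of low members such as Carm1, Kdm8 and Setd1b cannot be given.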
